A study of Mus musculus with 12 samples.

Results

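The collagen chains are the genes named Col followed by a type number, the letter a and a chain number. They were taken from the platform annotation wherever a probe set, the group of probes that reads a transcript, named a single such gene. This gave 82 probe sets of 42 genes, among 18194 genes measured on the array. Each gene was read by its brightest probe set over the 12 arrays, and the 40 other probe sets of the chains served as a check.

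The arrays compared gastrocnemius, the main calf muscle, of male mice from lines bred for high voluntary wheel running, at generation 37 of the selection and a mean age of 84 days (79 to 86). Mini-muscle is an inherited reduction of hindlimb muscle mass. The 6 mini-muscle arrays came from line 3, with the left and right muscles of each animal pooled. The 6 regular-muscle arrays came from line 8, with the muscle of 1 limb per animal. No unselected mice were analysed here. Phenotype, line and pooling divide the arrays in the same way and cannot be told apart. Each array held a different animal, and n = 6 per group throughout. The labelled tissue had bright fibre markers, with skeletal actin, Acta1, averaging 17.27 ± 0.08 (SD) in the mini-muscle group and 17.35 ± 0.18 in the other.

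Collagens are matrix proteins built of 3 chains wound into a triple helix, and each gene encodes a chain. Fibrillar collagens, chiefly types I and III, form the tension-bearing fibrils of tendon and of the connective tissue around muscle and its fibres, and are made mostly by fibroblasts. Type IV forms a sheet-like network in the basement membrane that wraps each muscle fibre, nerve and capillary. Fibril-associated collagens sit on fibrils or at tissue boundaries, and transmembrane collagens are held in the plasma membrane.

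Values are log2 MAS5 intensities of probe sets. A difference is the mini-muscle mean less the regular-muscle mean, with its standard error (SE) from the fit, so that a negative value is lower in mini-muscle. A chain was tested if its mean over all arrays reached the median of all genes, a log2 value of 8.56 called the dim limit here. A tested chain was called changed at an adjusted p under 0.05 in limma, with Benjamini-Hochberg adjustment over the 9097 genes above that limit. All adjusted p-values below are from limma unless another test is named.

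The main fibril-forming chains were lower in mini-muscle, the type IV chains of the basement membrane did not pass the test, and Col19a1 and Col22a1 were higher. Of the 42 chains, 21 were above the dim limit and 21 below it. Of the 21 tested, 6 (28.6%) fell, where 11.8% of all tested genes fell. They were Col1a1, Col1a2, Col3a1, Col5a2, Col6a1 and Col14a1. Col19a1 and Col22a1 rose, 9.52% of the tested chains beside 14.9% of all tested genes. Together 8 of the 21 changed, where 26.7% of all tested genes did, and the share of chains that rose was not above that of all genes. The median difference of the tested chains was 0.01, beside 0.03 over all tested genes, so the chains had no common direction. The arrays of the groups did not overlap for 2 of the 21 chains, Col1a1 below and Col19a1 above, beside 13.0% of all tested genes (6.11% below and 6.86% above). Without the dim limit, 5 of the 42 chains fell, beside 5.33% of 18194 genes, and 3 rose, beside 6.76%. When all 34958 single-gene probe sets were tested, 5 of the chains' brightest probe sets fell, beside 3.91%, and 3 rose, beside 5.0%. The 13 chains that did not pass had differences from -0.22 to 0.57.

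**Figure D1:**
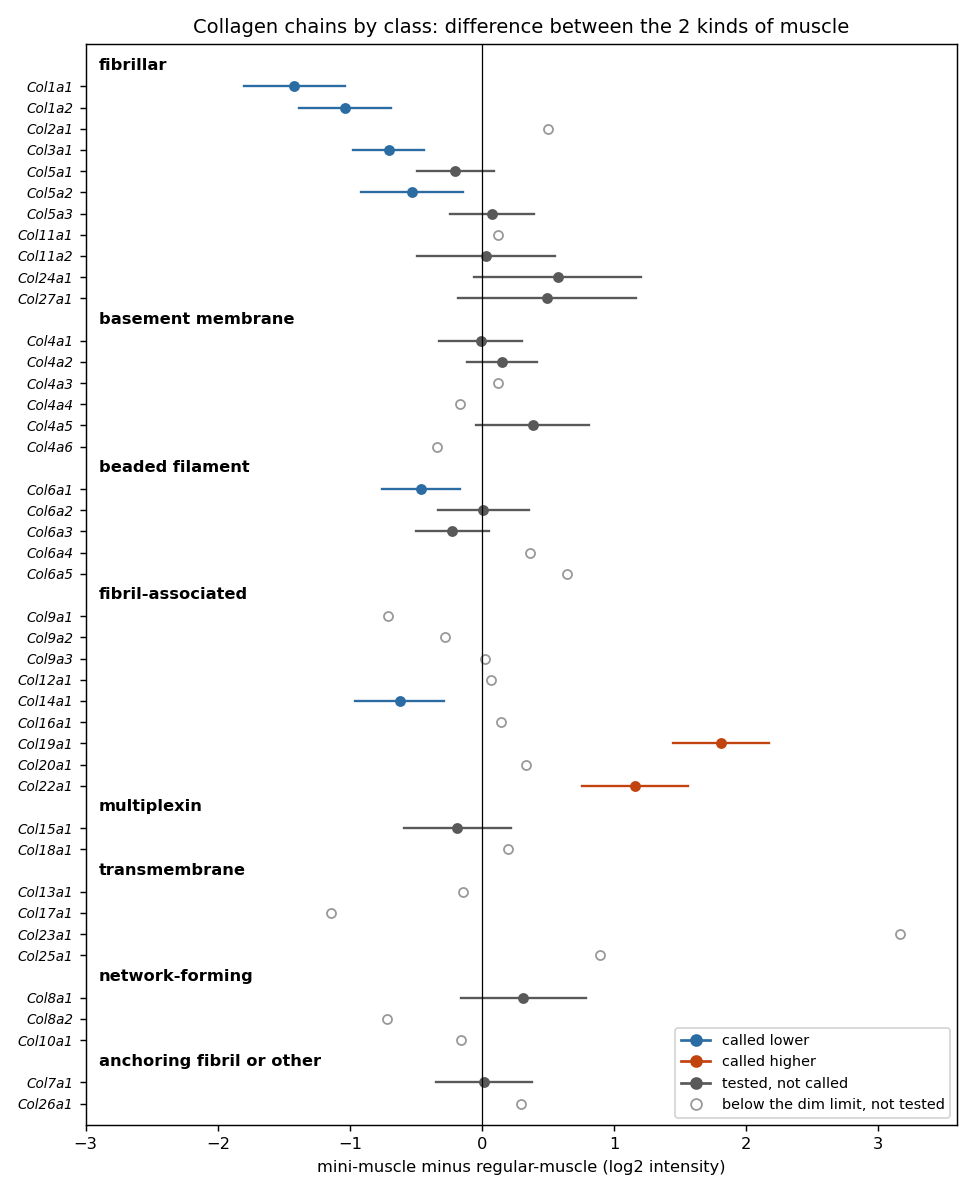
Difference between mini-muscle and regular muscle (x axis, log2 intensity) for the 42 collagen chains, grouped by class. Filled points are tested chains with 95% intervals, coloured where called, and open points are the 21 chains below the dim limit, which were not tested. The 4 blue fibrillar chains lie left of 0, the tested type IV chains have intervals that include 0, and Col19a1 and Col22a1 lie right of 0.

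In the fibrillar class, 9 of 11 chains were above the dim limit, with a class median of -0.20. In limma 4 fell (44.4%, beside 11.8% of all tested genes) and 0 rose (0 at an unadjusted p under 0.05), beside 14.9%. Col1a1, the alpha 1 chain of type I collagen, read 11.06, 10.30, 10.11, 10.57, 9.84 and 10.74 on mini-muscle replicates 1 to 6. On regular-muscle replicates 1 to 6 it read 12.45, 11.78, 11.70, 11.52, 11.90 and 11.80. Every mini-muscle array lay below every regular-muscle array, and regular-muscle replicate 1 stood highest. Col1a1 was lower by a factor of 2.68 (log2 difference -1.42, SE 0.18; adjusted p = 1.4e-05). A second Col1a1 probe set gave -1.18.

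Col1a2, the partner chain in the type I heterotrimer, read 12.92, 12.04, 12.10, 12.31, 11.78 and 12.52 in mini-muscle. It read 13.87, 13.38, 13.25, 12.89, 13.23 and 13.29 in regular muscle. Only mini-muscle replicate 1 reached into the regular-muscle range, just above regular-muscle replicate 4. Col1a2 fell by 1.04 (SE 0.17, 2.05-fold, adjusted p = 1.5e-04). Its second bright probe set gave -1.49, whereas a dim one, with a mean of 5.65, gave 1.06. The mean of all 3 gave -0.49 (adjusted p = 0.43, with 2.0e-05 to 0.43 over all alternatives).

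Col3a1, the chain of the type III homotrimer found with type I in fibrils, read 13.67, 12.96, 13.55, 13.23, 12.99 and 13.28 in mini-muscle. The regular-muscle arrays read 14.24, 14.05, 14.14, 13.75, 14.12 and 13.60. The groups met at 1 array each, mini-muscle replicate 1 and regular-muscle replicate 6. Col3a1 fell by 0.71 (SE 0.13, 1.63-fold, adjusted p = 4.6e-04), and its second probe set gave -0.74.

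Type V collagen nucleates the fibrils of type I and is incorporated within them. Its chain Col5a2 lies next to Col3a1 on chromosome 1 and was at 10.02 ± 0.33 in mini-muscle and 10.55 ± 0.41 in regular muscle. It fell by 0.53 (SE 0.18, adjusted p = 0.039), with -0.61 at its second probe set, but the call was lost in 7 of 12 fits without 1 array. These left out mini-muscle replicates 2, 4, 5 or 6 or regular-muscle replicates 1, 3 or 5, and the adjusted p over all alternatives was 0.014 to 0.095. The partner chain Col5a1 differed by -0.20 (95% interval -0.49 to 0.09, adjusted p = 0.32) and Col5a3 by 0.08 (-0.25 to 0.40, adjusted p = 0.77). Col24a1 differed by 0.57 (-0.06 to 1.20, adjusted p = 0.18), Col27a1 by 0.49 (-0.18 to 1.17, adjusted p = 0.29), and Col11a2, known from cartilage, by 0.03. Col2a1, the cartilage collagen, and Col11a1 were below the dim limit.

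The RefSeq promoter table (GRCm38.p6) had windows for 33 of the 42 chains, 36 windows in all. Of the 6 lower chains, Col1a2, Col3a1 and Col6a1 had an entry, and the 250 bases before their annotated starts are shown because these genes moved in the same direction. Col1a2 is at chr6:4505368-4505617 on the plus strand, Col3a1 at chr1:45311288-45311537 on the plus strand and Col6a1 at chr10:76726045-76726294 on the minus strand. Capitals mark matches, on either strand, to CCAAT (the box bound by nuclear factor Y), GGGCGG (the GC box bound by Sp1), TATAAA (the core promoter box of TBP) and CANNTG (the E-box, where N means any base).
Col1a2: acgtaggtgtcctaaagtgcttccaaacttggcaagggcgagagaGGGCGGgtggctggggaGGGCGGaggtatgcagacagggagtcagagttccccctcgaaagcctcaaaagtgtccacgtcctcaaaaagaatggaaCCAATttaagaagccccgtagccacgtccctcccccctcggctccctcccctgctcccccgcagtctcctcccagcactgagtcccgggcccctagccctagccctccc
Col3a1: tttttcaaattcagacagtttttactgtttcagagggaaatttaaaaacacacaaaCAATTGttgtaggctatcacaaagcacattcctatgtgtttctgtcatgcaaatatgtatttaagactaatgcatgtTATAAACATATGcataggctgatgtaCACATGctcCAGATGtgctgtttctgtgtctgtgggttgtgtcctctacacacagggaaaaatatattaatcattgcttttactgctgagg
Col6a1: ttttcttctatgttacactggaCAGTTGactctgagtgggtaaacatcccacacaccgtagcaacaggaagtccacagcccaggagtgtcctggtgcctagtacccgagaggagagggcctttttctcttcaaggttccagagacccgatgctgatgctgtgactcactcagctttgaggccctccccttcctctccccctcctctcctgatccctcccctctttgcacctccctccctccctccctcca

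The 3 windows shared no motif among the 4 searched, except that Col3a1 (4 matches) and Col6a1 (1 match) both held CANNTG, which 66.2% of all 32851 windows of this length also held. Col1a2 had a CCAAT match that began 109 bases before the start, together with 2 GGGCGG matches. Col3a1 had TATAAA directly followed by a CANNTG match, and no matches overlapped. CCAAT was present in 33.8% of all windows, GGGCGG in 32.7% and TATAAA in 12.4%. Among the 36 collagen windows, 13 held CCAAT, 21 GGGCGG, 5 TATAAA and 18 CANNTG.

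Type IV collagen has 6 chains, of which Col4a1 and Col4a2 form the common network of muscle basement membrane and are neighbours on chromosome 8. Of the 3 chains above the dim limit, 0 passed limma's test, and 0 had an unadjusted p under 0.05. Since 26.7% of all tested genes passed and 11.8% fell, a count of 0 of 3 does not set the class apart. Col4a1 read 12.42, 11.84, 12.67, 12.06, 12.23 and 12.19 in mini-muscle. In regular muscle it read 12.46, 12.24, 12.12, 12.54, 12.46 and 11.64. The groups covered nearly the same range. The difference was -0.01 (95% interval -0.32 to 0.30, adjusted p = 0.97), and a second probe set gave 0.27.

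Col4a2 was at 11.28 ± 0.29 in mini-muscle and 11.13 ± 0.17 in regular muscle, a difference of 0.15 (95% interval -0.11 to 0.42, adjusted p = 0.42). Col4a5, of the alternative network and on the X chromosome, differed by 0.38 (-0.04 to 0.81, adjusted p = 0.18). These intervals still allow a fall of up to 0.32 for Col4a1 and a rise of up to 0.81 for Col4a5. Col4a3, Col4a4 and Col4a6 were below the dim limit, with differences of 0.12, -0.16 and -0.34. The summed intensity of all 6 type IV chains was 7354 to 11310 on mini-muscle and 7088 to 9648 on regular-muscle arrays. That of the 11 fibrillar chains was 17530 to 28002 and 28931 to 46924, without overlap. Such a sum weights bright chains most, here Col3a1, Col1a2 and Col1a1, which were each called singly. It is therefore no separate evidence for the class, in which 5 of 9 tested chains did not pass.

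**Figure D2:**
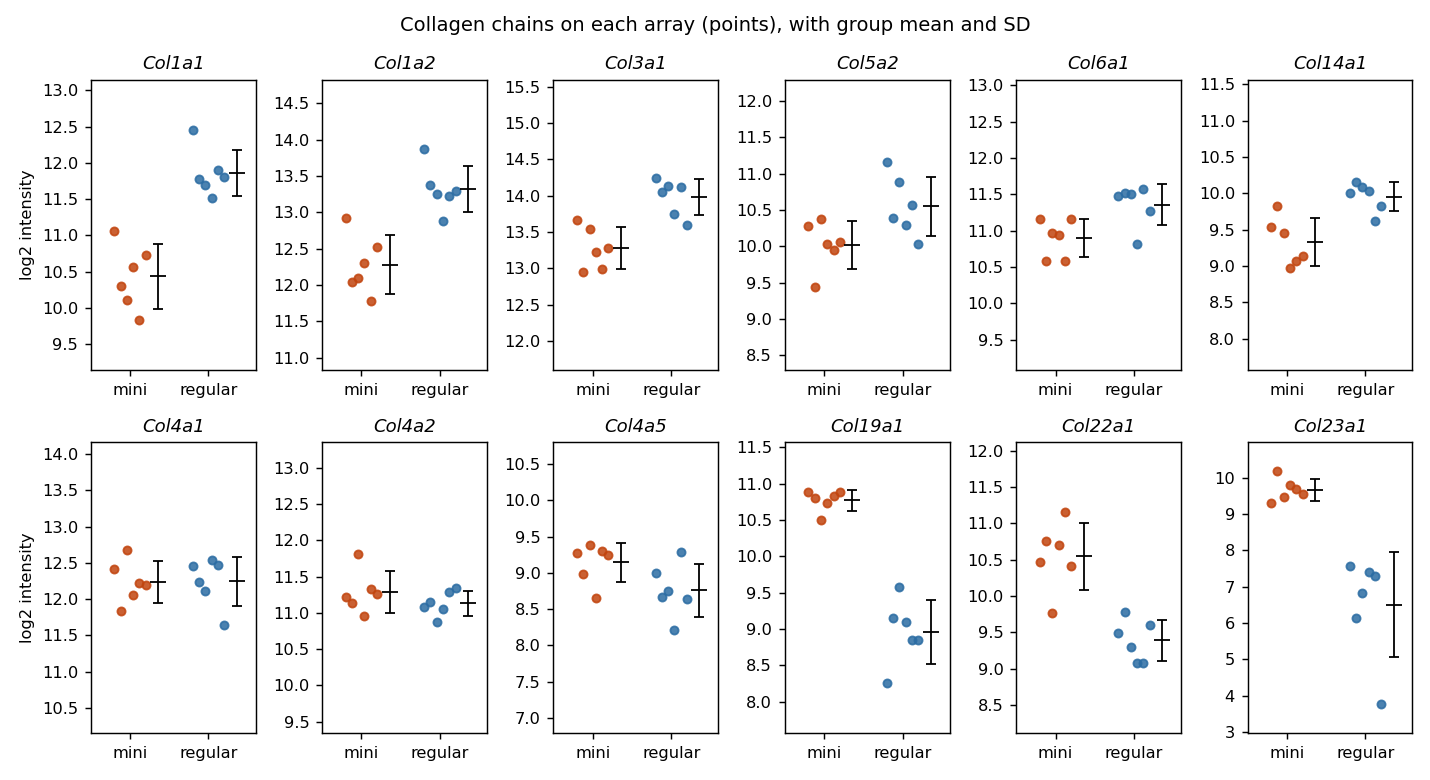
Log2 intensity (y axis) of 12 collagen chains on each array, with mini-muscle arrays on the left and regular-muscle arrays on the right of each panel, and group mean with SD beside the points. All panels span 4 log2 units except Col23a1, which spans 8. Col1a1, Col19a1 and Col23a1 have no overlap between groups, whereas the type IV chains overlap throughout.

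Whether the chains' brightest probe sets changed unequally was tested within arrays, on the log2 difference of 9 pairs of chains. A two-sided exact permutation test over all 924 assignments of arrays was used, whose smallest p is 0.0022. Its p-values had Benjamini-Hochberg adjustment over the 9 pairs. The 95% intervals of the pairs are t intervals with pooled variance, do not come from the permutation test and are not adjusted. Such a difference between groups shows unequal change of the 2 probe-set signals, and says nothing of the chains' relative amounts. Probe sets of 1 gene can also change unequally, as those of Col1a2 did (-1.04 and -1.49). Col1a1 relative to Col4a1 was at -2.56 to -1.36 on the mini-muscle arrays and at -1.02 to 0.15 on the regular-muscle arrays. All 6 mini-muscle arrays were lower, and the difference was -1.41 (95% interval -2.03 to -0.80, exact adjusted p = 0.0049). Col3a1 relative to Col4a1 differed by -0.70 (-1.01 to -0.38, exact adjusted p = 0.0078), with an overlap at mini-muscle replicate 1 and regular-muscle replicate 4. Col1a1 relative to Col6a1 differed by -0.96 (-1.34 to -0.58, exact adjusted p = 0.0049). By their brightest probe sets, the group means of Col1a1 and Col3a1 thus each changed unequally to Col4a1, and that of Col1a1 to Col6a1.

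Whether the type I chains fell unequally depended on the probe set. With the brightest probe sets, the log2 difference of Col1a1 and Col1a2 was -1.84 ± 0.11 in mini-muscle and -1.46 ± 0.11 in regular muscle, without overlap (difference -0.38, 95% interval -0.52 to -0.25, exact adjusted p = 0.0049). Without probe sets of the _x, _s and _a classes, an alternative added after the data were seen, Col1a2 is read by its second bright probe set. The sign then turned, to 0.068 (exact adjusted p = 0.72). The mean of all probe sets, dim ones included, gave -0.81 (exact adjusted p = 0.074), and the adjusted p ran from 0.0039 to 0.72 over the alternatives run for this pair. Singly, the bright Col1a2 probe sets gave -1.04 and -1.49 and the Col1a1 probe sets -1.42 and -1.18, so no order of the type I chains can be given. By the brightest probe sets, Col1a1 fell more than Col3a1, by 0.71 (exact adjusted p = 0.0049). The pairs Col4a1 and Col4a2 (difference -0.16, 95% interval -0.58 to 0.26, exact adjusted p = 0.42), Col5a1 and Col5a2 (0.33, -0.19 to 0.85, 0.23) and Col6a1 and Col6a3 (-0.24, -0.53 to 0.06, 0.14) did not pass.

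**Figure D3:**
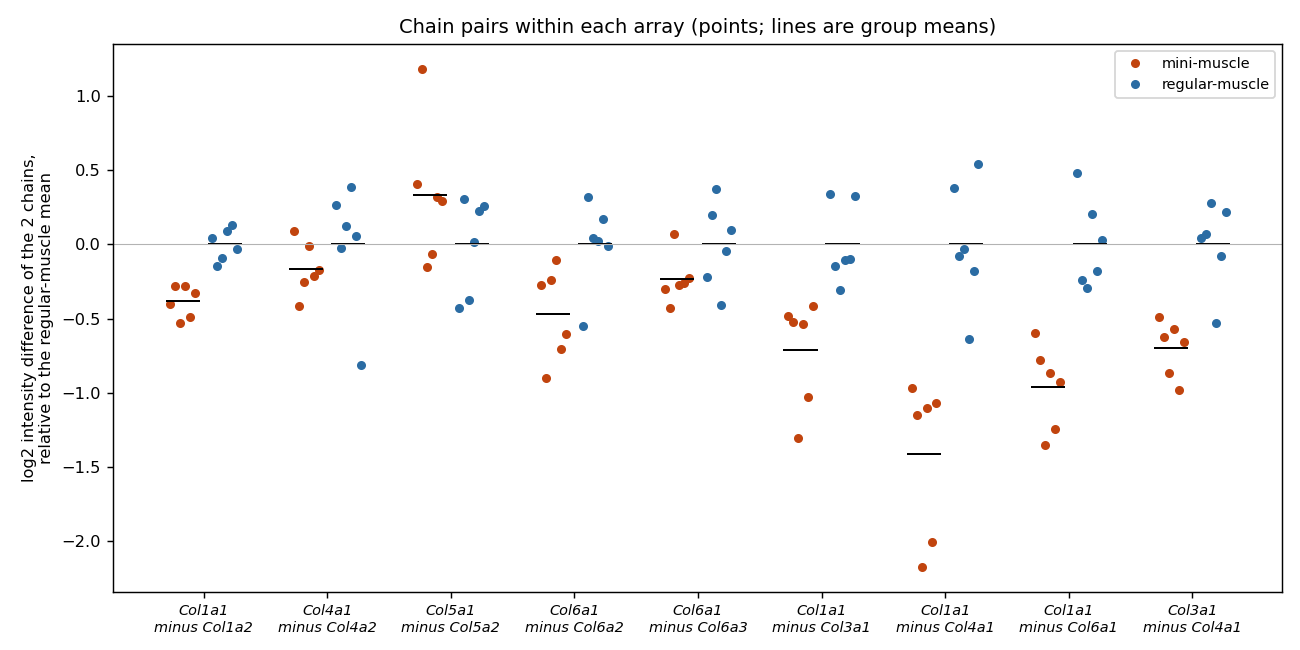
Log2 intensity difference of 2 chains within each array (y axis), set to 0 at the regular-muscle mean, for the 9 pairs tested, with lines at the group means. For Col1a1 against Col3a1, Col4a1 and Col6a1, all mini-muscle points lie below all regular-muscle points. This also holds for Col1a1 against Col1a2 with the brightest probe sets drawn here, but turns to 0.068 without probe sets of the _x, _s and _a classes.

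Type VI collagen forms beaded microfilaments beside the basement membrane, and its loss causes a myopathy. Col6a1 was at 10.90 ± 0.26 in mini-muscle and 11.36 ± 0.28 in regular muscle and fell by 0.46 (SE 0.14, adjusted p = 0.020). That call was lost with arrays centred on their medians (adjusted p = 0.076) and without mini-muscle replicate 2 or 5 (0.052 each), over a range of 0.0022 to 0.076 in all alternatives. Its neighbour on chromosome 10, Col6a2, differed by 0.01 (95% interval -0.33 to 0.35, adjusted p = 0.97), with -0.37 at its second probe set, and Col6a3 by -0.22 (-0.50 to 0.05, adjusted p = 0.23). The first probe set of Col6a2 is of the _x class, which can match several transcripts. Col6a1 fell relative to Col6a2 by 0.47 (exact adjusted p = 0.045), and this passed in 4 of the 12 fits without 1 array, those without mini-muscle replicates 1, 3 or 4 or regular-muscle replicate 1 (exact adjusted p 0.0065 to 0.19 over all alternatives). Col6a4 and Col6a5 were below the dim limit.

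The fibril-associated class moved in both directions, and all 3 of its 9 chains above the dim limit passed, beside 26.7% of all tested genes. Col14a1, which binds fibrils through decorin, was at 9.33 ± 0.33 in mini-muscle and 9.96 ± 0.20 in regular muscle and fell by 0.62 (SE 0.16, adjusted p = 0.0068). Its second probe set gave -0.45, and did not pass when it replaced the first (adjusted p = 0.15, with 0.0023 to 0.15 over all alternatives).

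Col19a1, a basement membrane zone collagen that was first cloned from a human rhabdomyosarcoma line, read 10.88, 10.80, 10.50, 10.74, 10.83 and 10.88 in mini-muscle. In regular muscle it read 8.26, 9.15, 9.58, 9.10, 8.85 and 8.85. The mini-muscle arrays were close together and all higher. Col19a1 rose by 1.81 (SE 0.17, 3.50-fold, adjusted p = 5.9e-07), and its second bright probe set gave 1.70. Its neighbour on chromosome 1 is Col9a1, a chain of cartilage collagen, which was just below the dim limit and differed by -0.71.

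Col22a1, a collagen of the myotendinous junction where fibres meet tendon, read 10.47, 10.76, 9.77, 10.71, 11.15 and 10.41 in mini-muscle. It read 9.49, 9.78, 9.30, 9.08, 9.07 and 9.60 in regular muscle. The groups overlapped only where mini-muscle replicate 3 lay just below regular-muscle replicate 2. Col22a1 rose by 1.16 (SE 0.19, 2.23-fold, adjusted p = 1.9e-04), and a second bright probe set gave 1.15. The other members of the class, among them Col9a1, Col12a1 and Col16a1, were below the dim limit.

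All 4 transmembrane chains were below the dim limit by their mean over all arrays. For Col23a1 this came from regular muscle alone. It read 9.29, 10.18, 9.47, 9.79, 9.69 and 9.55 on the mini-muscle arrays, each above the limit. It read 7.58, 6.14, 6.82, 7.41, 7.29 and 3.76 on the regular-muscle arrays, each below it. The difference was 3.16, the largest of all 42 chains, and the other probe sets gave 2.20 and 2.09. Without the dim filter Col23a1 passed (SE 0.51, adjusted p = 2.3e-04 over all 18194 genes, of which 6.76% passed as higher). Its size is uncertain, since dim MAS5 values are noisy. Col25a1, needed in the mouse for motor innervation of muscle, differed by 0.89 with an overlap between groups (adjusted p = 0.37 without the filter). Col13a1, a collagen of the neuromuscular junction, differed by -0.14. Col17a1, of epithelial hemidesmosomes, differed by -1.15 at a mean of 4.70, where values spread widely.

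Of the multiplexins, Col15a1, which links basement membrane to the fibrils around fibres and capillaries, differed by -0.19 (95% interval -0.59 to 0.22, adjusted p = 0.53). Col18a1, the source of endostatin, was below the limit and differed by 0.20. The network-forming Col8a1 of vessel walls differed by 0.31 (-0.16 to 0.78, adjusted p = 0.33) and Col7a1, of anchoring fibrils, by 0.02 (-0.34 to 0.38, adjusted p = 0.96). Across the 21 chains below the limit, differences ran from -1.15 to 3.16, and Col23a1 was the only one that passed when the filter was dropped. Just inside the limit was Col11a2 (mean 8.59), and just outside it Col9a1 (8.45).

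Of 11 tested genes that fold and modify procollagen, 0 fell in limma (0 at an unadjusted p under 0.05) and 3 rose. The share that rose was 27.3%, beside 14.9% of all tested genes, of which 11.8% fell. Plod3, a lysyl hydroxylase and glycosyltransferase of collagen, rose by 0.64 (SE 0.15, adjusted p = 0.0040), P4ha2, a prolyl 4-hydroxylase subunit, by 0.41 (adjusted p = 0.046) and its partner P4hb, protein disulfide isomerase, by 0.24 (adjusted p = 0.031). Serpinh1, the collagen chaperone HSP47, differed by 0.04 (adjusted p = 0.87). It was named after its value was seen. The count of 3 was 1 with median centring and without the intensity trend, where neither P4ha2 nor P4hb passed. The count was also 1 at a higher dim limit and without mini-muscle replicates 1, 4 or 5 or regular-muscle replicate 5. P4ha2 also did not pass without the dim filter (adjusted p = 0.090), with quantile normalization (0.083) or with the mean of all probe sets (0.067). P4hb was not tested without _x, _s and _a probe sets.

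Of 6 tested genes of extracellular processing and crosslinking, 3 fell and 0 rose in limma (0 at an unadjusted p under 0.05). The share that fell was 50%, beside 11.8% of all tested genes. Pcolce2, an enhancer of procollagen C-proteinase, fell by 1.63 (SE 0.29, 3.08-fold, adjusted p = 3.8e-04), without overlap between groups. Its mini-muscle mean of 8.01 was below the dim limit and its regular-muscle mean of 9.64 above. Pcolce2 was therefore tested only through regular muscle, its size is uncertain, and the share of 50% counts it. Pcolce, its paralogue, fell by 0.55 (adjusted p = 0.0036) and Lox, lysyl oxidase, by 0.61 (adjusted p = 0.024). Of 3 tested proteases that act on collagen, Mmp14, a membrane-bound collagenase, fell by 1.20 (SE 0.32, adjusted p = 0.0084). It too passed the limit only through regular muscle (8.05 against 9.25). Mmp2, named after its values were seen, differed by -0.04 and did not pass (adjusted p = 0.87). Without _x, _s and _a probe sets Mmp2 was at -0.49 and passed (adjusted p = 0.017). With the mean of all probe sets it was at -0.27 and did not pass (adjusted p = 0.14).

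Of 3 tested collagen receptor genes, Ddr2, the receptor kinase for fibrillar collagen, fell by 0.77 (adjusted p = 0.0017). Itgb1, the beta 1 integrin chain that also serves laminin and fibronectin receptors, rose by 1.13 (SE 0.09, adjusted p = 1.0e-07). Ddr1 did not pass, and the alpha chains Itga1, Itga2 and Itga10 were below the dim limit. Among 10 tested partners of type IV in the basement membrane, Lamb2, the laminin beta 2 chain, rose by 0.76 (adjusted p = 0.0012), and Nid1, nidogen 1, fell by 0.47 (adjusted p = 0.0036). Sparc, a collagen-binding matricellular protein, fell by 0.43 (adjusted p = 0.019), and 7 did not pass. When all probe sets of a gene were averaged, Pcolce and Pcolce2 were the 2 genes still called lower, of 7. Ddr2, Nid1 and Sparc no longer passed, and Lox and Mmp14 were below the dim limit and not tested. Over the 5 lists, 7 of 33 tested genes fell (21.2%) and 5 rose (15.2%), beside 11.8% and 14.9% of all tested genes. The 7 include Pcolce2 and Mmp14, which passed the dim limit only through regular muscle.

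**Figure D4:**
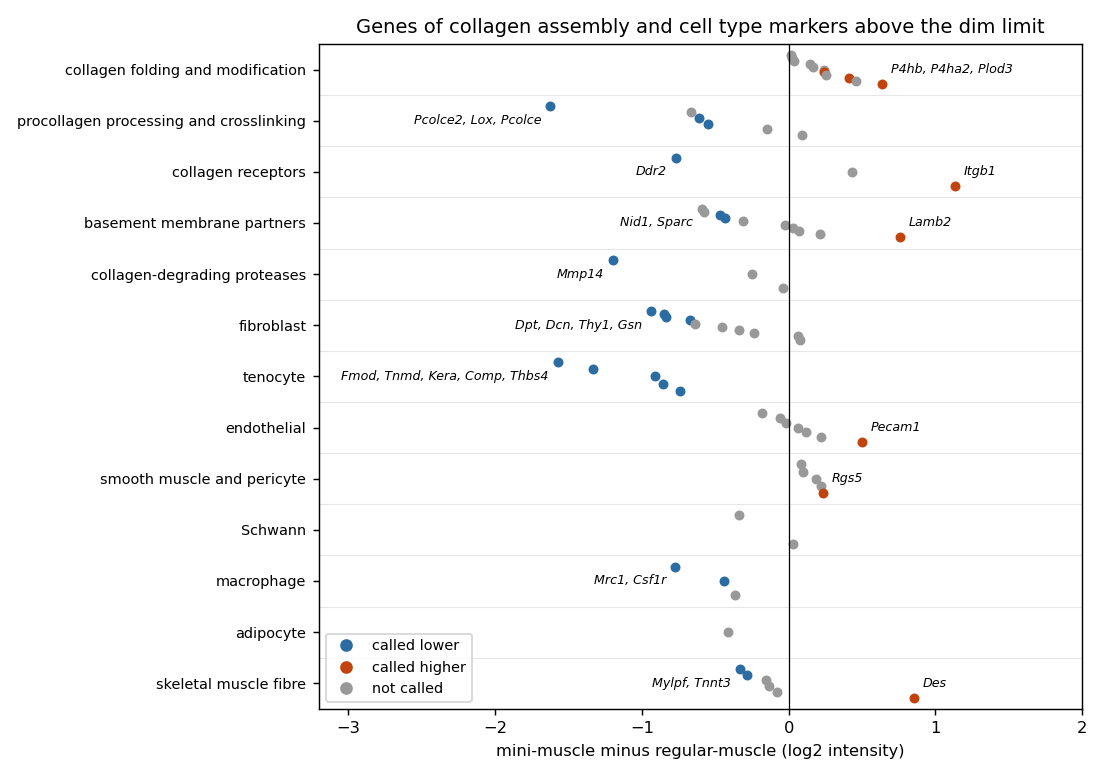
Difference between mini-muscle and regular muscle (x axis, log2 intensity) for tested genes of collagen assembly and of cell type marker lists, 1 row per list, with called genes coloured and named. The 5 tested tenocyte genes and the 4 called fibroblast genes lie left of 0, and the called genes of the endothelial and pericyte lists right of it.

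Fibroblasts and tenocytes are the matrix-producing cells of connective tissue and tendon. Of 10 tested fibroblast markers 4 fell and 0 rose in limma (7 and 0 at an unadjusted p under 0.05), with a median of -0.55. The share that fell in limma was 40%, beside 11.8% of all tested genes. The share of all tested genes at an unadjusted p is not given here, so the count of 7 cannot be judged against it. The 4 were Dcn (-0.85), Dpt (-0.94), Gsn (-0.67) and Thy1 (-0.84). The other 6 did not pass, among them Lum (0.07, adjusted p = 0.83) and Cd34 (0.07, adjusted p = 0.80), named after their values were seen. With the mean of all probe sets 2 markers passed, Dcn was at -0.16 and Gsn turned to 0.26, neither of which passed. The summed intensity of the 10 markers was 35031 to 52768 on mini-muscle and 54155 to 83299 on regular-muscle arrays. Gsn and Dcn were the brightest of the 10 and weigh most in this sum, so it mainly restates their values. Of 7 tenocyte markers, the defining factors Scx and Mkx were below the dim limit. All 5 tested fell, beside 11.8% of all tested genes, with a median of -0.91. Among them were Fmod (-1.57), Comp (-0.86), Thbs4 (-0.74) and Tnmd (-1.33). The sum over all 7 tenocyte markers was 6959 to 13219 and 17790 to 21359, without overlap, and Thbs4 and Fmod, the brightest, weigh most in it. The part of these cells in the collagen results was not tested, and in whole muscle fewer cells of a type and less RNA per cell cannot be told apart.

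Over all tested genes 11.8% fell and 14.9% rose, against which the counts of the following short lists stand. Of 7 endothelial markers 0 fell in limma (0 at an unadjusted p under 0.05) and Pecam1 rose by 0.50 (adjusted p = 0.044). It did not pass without the dim filter, with quantile normalization, with the mean of all probe sets or without the intensity trend, and was not tested at the higher dim limit or without _a probe sets. The call held in 3 of 12 fits without 1 array, those without mini-muscle replicates 2 or 5 or regular-muscle replicate 1. Their sums were 6865 to 9318 in mini-muscle and 5791 to 9449 in regular muscle. Of 5 tested smooth muscle and pericyte markers 0 fell in limma (0 at an unadjusted p under 0.05) and Rgs5 rose by 0.23 (adjusted p = 0.019), a call lost with median centring and without the intensity trend, and with the mean of all probe sets it was at -0.11 and did not pass. Of 2 tested Schwann cell markers and 1 adipocyte marker 0 passed limma's test (0 at an unadjusted p under 0.05). Of 3 tested macrophage markers Mrc1 (-0.77) and Csf1r (-0.44) fell, and Csf1r no longer passed with median centring or with the mean of all probe sets. The count of 2 was 1 without mini-muscle replicate 5. Of 6 fibre markers Mylpf (-0.33) and Tnnt3 (-0.29) fell and Des, desmin, rose by 0.85. Tnnt3 no longer passed with quantile normalization or median centring, and 1 marker fell without _x, _s and _a probe sets. These lists were not tested for a part in the collagen differences.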

How the data were processed

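The deposited values are linear intensities, 1 per probe set and array. The submitters' processing notes name MAS5, with version and settings not given in the sources used here. The deposited intensities of each array had a mean of 800.0 after trimming 2% at each end, so the arrays had been scaled to 1 target. Arrays have no read depth, and their number limits the precision. Of 45101 probe sets, 34958 named a single gene in the platform annotation, and the others were left out.

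No offset was added before taking log2. Groups came from the labels, replicate numbers only name arrays, and the labels give no batch. Group means were compared with limma 3.58.1 (R 4.3.3; lmFit, eBayes with trend), two-sided. Data of 9097 genes were simulated for this comparison, with independent noise and 100 genes changed at each fold. Of these, 63% of 1.5-fold and 86% of 2-fold changes were called, with 0 wrong signs and 7 false calls among 156. In the real data 2426 genes were called, so these rates need not hold there. No 2 arrays were identical, and correlations over tested genes were 0.954 to 0.974 within and 0.924 to 0.948 between groups. The members and lists were chosen with earlier results of these data known. Values are printed for 12 fixed chains, other called chains, the 3 uncalled chains with the largest difference and up to 4 called members per list. Other chains are named for completeness. Acta1, Serpinh1, Mmp2, Lum, Cd34 and Col20a1 were named after their values were seen. Older synonyms in the lists were not counted unless measured. Gene order is from RefSeq (GRCm38.p6).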

Additional observations from a re-analysis of the deposited data

Results flagged for a closer look

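An array stood apart from the rest of its group, by Dixon's criterion for 6 values, in 2 of 44 groups examined (22 chains in 2 kinds of muscle), and chance alone marks about 1 group in 20. Col11a2 read 7.65 on regular-muscle replicate 2, where the next lowest array of the group read 8.51. Col19a1 read 10.50 on mini-muscle replicate 3, the lowest of its group, with the next at 10.74. Without that array the rise of Col19a1 remained, since its difference was 1.67 to 1.93 in all fits without 1 array.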

How the results depend on the processing

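The alternatives were no or a higher dim limit, quantile normalization, median centring, an offset of 64, the mean of all probe sets, no _x, _s or _a probe sets, no intensity trend and each array left out. Testing every single-gene probe set, and chain pairs without _x, _s and _a probe sets, were added after the data were seen. Col1a1, Col3a1, Col19a1 and Col22a1 kept direction and call wherever they were tested. Col19a1 and Col22a1 lie below the 75th percentile limit, which therefore gave 0 higher chains and a median of -0.34 over 8 chains. Lower chains numbered 4 to 6 and fibrillar ones 3 to 4 in all alternatives, higher chains 2 to 3 in the others, and type IV had 0. Without 1 array the median was -0.06 to 0.05. The related genes called higher were 3 with the higher dim limit, with median centring and without the trend. They were 3 to 6 without 1 array (3 without mini-muscle replicates 1, 4 or 5 or regular-muscle replicate 5). Of the related genes called higher, P4ha2 also lost its call without the dim filter, with quantile normalization and with the mean of all probe sets. The related genes called lower were 3 with the higher limit (fewer genes tested), 2 with the mean of all probe sets, and 6 to 9 without 1 array. Without _x, _s and _a probe sets Col1a1 against Col1a2 turned to 0.068, and Col6a1 against Col6a2 could not be computed. With the mean of all probe sets, Col1a1 against Col1a2 (-0.81) and Col6a1 against Col6a2 (-0.28) no longer passed, and the cause was not tested. Without 1 array, Col6a1 against Col6a2 ranged from -0.58 to -0.39. Col4a1 against Col4a2 (-0.33 to -0.087) passed only without regular-muscle replicate 6, and Col6a1 against Col6a3 (-0.32 to -0.16) only without regular-muscle replicate 4. No paired analysis was made, because each array held a different animal, the groups came from different lines and the labels name no pairs. No alternative reversed a called single chain. Dim MAS5 values limit what can be said of the 21 chains below the limit.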

Other observations

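Correlations between the 9 pairs of chains were computed within each group of 6 arrays, 18 relations in all, and none had an adjusted p under 0.05. With 6 arrays an exact permutation p has a floor, so a single relation could hardly pass after adjustment over 18. That none passed therefore does not show that relations are absent. The closest was Col1a1 with Col1a2 in mini-muscle, with Pearson r = 0.97 (exact permutation p = 0.0042, adjusted p = 0.075) and Spearman rho = 0.94 (exact permutation p = 0.017, adjusted p = 0.30), and r = 0.91 without the 2 arrays farthest from the median. In regular muscle the same pair had r = 0.94 (exact permutation p = 0.021, adjusted p = 0.19) and rho = 0.60 (exact permutation p = 0.24, adjusted p = 0.62). Without the 2 farthest arrays r was -0.31, so that relation rests on them.

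A dim limit set on the mean over all arrays leaves out a gene that is bright in 1 group alone, and Col23a1 was such a case among the chains. Col20a1, a fibril-associated chain also below the limit, differed by 0.33 at its brightest probe set and by 1.34 at its second, of the _s class (adjusted p = 0.042 over all single-gene probe sets, of which 5.0% passed as higher). Its remaining, dimmer probe sets gave -0.97 and 0.59 and did not pass, so its direction is not settled.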
